A study of Mus musculus with 10 samples.

Results

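Integrins are receptors of 1 α and 1 β subunit that join the matrix outside the cell to the actin cytoskeleton inside it. The 10 subunits described here are among those of stromal and endothelial cells, Itgb1, Itgb3, Itgb5, Itgav, Itga1, Itga2, Itga5, Itga6, Itga7 and Itga9. They were chosen from the 56748 genes of the count table by symbol, with the difference between KO and control cultures already known, so their own fold changes are given as a description with no test. The family has 26 subunits in the table, and the other 16 are set beside the 10. RNA-seq measured 5 control and 5 Ad-Fam20c–KO cultures of primary adipocytes. Control cultures carried the floxed Fam20c gene alone (Fam20c-flox), and KO cultures carried it with the Cre of the adiponectin promoter (Fam20c-flox/Adipoq-Cre). The cells of both groups were the stromal vascular fraction (SVF) of inguinal fat, taken from male mice of 6 to 8 weeks on a background crossed back to C57BL/6J and brought to adipocytes in culture over 6 to 8 days. Fam20c encodes a kinase of the secretory pathway, and the study asked which transcripts depend on it in adipocytes. Adipoq-Cre acts in cells that turn on adiponectin, so stromal, endothelial and blood cells left in such a culture would keep Fam20c. Fam20c was not measured by cell type here. The labels do not say that the 5 libraries of a group came from separate mice or cultures, and the p-values below measure the spread between these libraries only. The legend that shows these data in the study gives fewer samples per group than the count table holds. All 10 libraries of the table were used, and n below counts libraries.

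The β1 subunit pairs with many α subunits. α1 and α2 make collagen receptors with it, α5 a fibronectin receptor, α6 and α7 laminin receptors, and α9 a receptor for tenascin and VCAM1. The αv subunit pairs with β3 and β5, among others, and these pairs bind vitronectin, fibronectin and osteopontin through the Arg-Gly-Asp (RGD) sequence. β1 and β5 are known from fibroblasts, fat cell progenitors and most other adherent cells. β3 is known from platelets, osteoclasts, macrophages and growing vessels, where αvβ3 serves adhesion of endothelial cells.

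The 3 β subunits described here share a short cytoplasmic tail that is the seat of integrin activation. Talin binds an Asn-Pro-X-Tyr (NPxY) turn in this tail, and kindlin binds a second, looser motif nearer the end. The stretch of coding sequence from 5 codons before the first NPxY to the last codon before the stop is printed for each. The 3 receptors have this tail in common, while only Itgb3 had RNA levels that did not overlap between groups. Capitals mark the codons of NPxY. All 3 genes lie on the plus strand of GRCm38, and each stretch runs over 2 exons, with the intron left out. It spans chr8:128726178-128732085 for Itgb1, chr11:104665624-104667142 for Itgb3 and chr16:33947873-33948749 for Itgb5.
Itgb1: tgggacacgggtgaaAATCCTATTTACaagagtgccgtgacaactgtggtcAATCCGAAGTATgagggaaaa
Itgb3: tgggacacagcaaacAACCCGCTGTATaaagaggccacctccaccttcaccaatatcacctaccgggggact
Itgb5: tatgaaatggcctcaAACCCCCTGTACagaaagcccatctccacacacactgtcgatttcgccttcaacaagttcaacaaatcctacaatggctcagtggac
Itgb1 had 2 such motifs in its last 70 codons, and Itgb3 and Itgb5 had 1 each. Over the principal transcripts of 16969 mouse genes the motif was found in the last 70 codons of 81, or 0.477%, and in 5 of the 7 β subunits that could be read. The longest run of bases that an Itgb3 transcript shared exactly with another integrin was 47, with Itga11, shorter than a read of 50 cycles. It was 19 for Itgb1 and 20 for Itgb5. Itgb1, Itgb3, Itgb5 and Itga2 overlapped no other gene of the GENCODE M21 annotation, which has a position for 52073 of the 56748 genes counted. Itgav shared 634 exon bases with Gm13684, which had no counts, and Itga1 shared 685 with Gm49395, which had a mean of 0.5 counts.

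Libraries held 18949106 to 26237825 counts. The adipocyte markers, Adipoq and Plin1 among them, summed to 39750 to 40964 counts per 1000000 (CPM) in control and 41666 to 43788 CPM in KO libraries, against 215.6 to 259.5 CPM and 89.4 to 127.9 CPM for 19 endothelial markers. The endothelial markers were present at a low level in all 10 libraries, and their sum was lower in KO. Fam20c averaged 10.2 ± 1.29 CPM in control against 7.30 ± 0.449 CPM in KO cultures (SD, n = 5 each), with no overlap of the libraries. Counts are per whole gene and do not single out the floxed exons. Control library 4 and KO library 1 stood apart on the first principal component of log2 CPM, which held 23.5% of the variance.

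Levels of different genes were compared as TPM, counts divided by gene length and scaled to 1000000 per library. Itgb1 was the most abundant subunit, with 353.7 ± 14.6 TPM (SD, n = 5) in control cultures. Among the 10, Itgb5 followed with 57.4 ± 5.71 TPM, Itga5 with 54.4 ± 7.24 TPM, Itga7 with 46.0 ± 2.12 TPM and Itga6 with 42.0 ± 3.57 TPM. Below these came Itgb3 with 17.2 ± 1.03 TPM, Itgav with 11.5 ± 2.05 TPM, Itga9 with 3.88 ± 0.296 TPM, Itga1 with 2.98 ± 0.372 TPM and Itga2 with 0.312 ± 0.137 TPM. Neighbours in this order did not overlap between the 5 control libraries, except for Itgb5 and Itga5, Itga5 and Itga7, Itga7 and Itga6, and Itga9 and Itga1. The order depended on the length used. With the longest transcript in place of all exons, Itga7 and Itga6 moved to the second and the third place of the 10, Itga1 passed Itga9, and Itgb3 and Itgav came to 13.67 and 13.65 TPM. The 10 subunits held 71.1% ± 1.71 (SD, n = 5) of the TPM of the family in control and 70.4% ± 1.76 (SD, n = 5) in KO cultures. The sum over all 26 subunits was 829 ± 45.0 TPM in control and 789 ± 42.0 TPM in KO cultures, with overlapping ranges of 786 to 883 and 739 to 836 TPM.

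**Figure D1:**
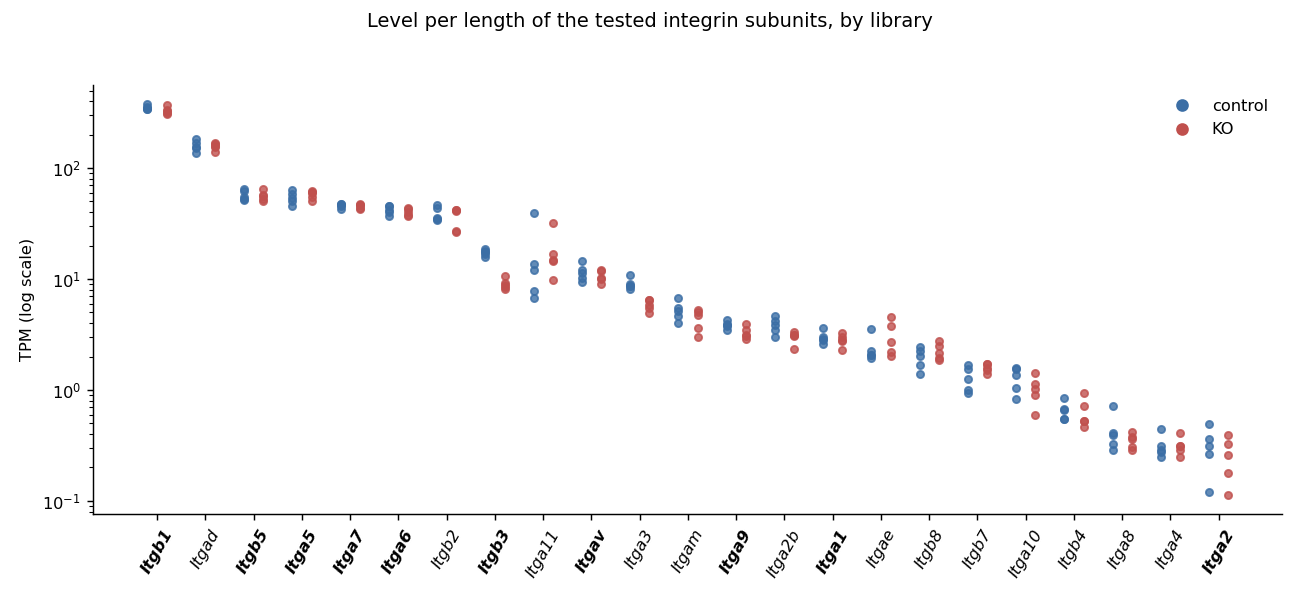
TPM of the 23 tested integrin subunits in each library, on a log axis, in order of the control mean, with control in blue and KO in red and the 10 subunits described in bold. Itgb1 lies at the top at 342 to 378 TPM in control, and among the 10 only Itgb3 has KO libraries that all lie below the control libraries.

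Itgb3, the partner of αv in vessels and of αIIb in platelets, was about halved in KO cultures, while the other 9 subunits kept overlapping values. Over all 14270 genes tested, 1.86% were lower and 0.308% were higher at an adjusted p limit of 0.05, and 3.97% had libraries that did not overlap. Of the 10 subunits, 1 passed the limit as lower and 0 as higher, and 1 did not overlap, in each case Itgb3. The members were chosen with this contrast known, and nothing is read from these counts. The median log2 fold change of the 10 was -0.06, with 8 of them negative, beside a median of -0.000847 over all genes tested, of which 50.3% were negative. The middle 90% of all genes, from the 5th to the 95th percentile, lay between -0.40 and 0.22 on the log2 scale.

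Among the β subunits, Itgb3 read 29.8, 30.9, 29.0, 33.0 and 32.0 CPM across control libraries 1 to 5, against 19.9, 17.2, 16.1, 14.2 and 15.8 CPM across KO libraries 1 to 5. The highest KO library, KO 1, lay well below the lowest control library, control 3. The mean was 46.3% lower in KO, and the log2 fold change was -0.90 (standard error 0.080). In a bulk culture, fewer cells of a type and less RNA per cell cannot be told apart. Over the other settings tried the log2 fold change was between -0.97 and -0.85, and it was -0.94 without control 4 and KO 1.

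Itgb1, the common partner of most α subunits, read 431, 422, 433, 457 and 452 CPM in the control libraries, in the same order, against 421, 427, 393, 443 and 400.1 CPM in the KO libraries. The groups overlapped, although 3 of the 5 KO libraries lay below the lowest control library. The log2 fold change was -0.08 (standard error 0.042). Itgb5, the RGD receptor subunit of fibroblasts and epithelia, had 58.9, 56.9, 70.8, 58.1 and 65.3 CPM in control and 63.1, 55.9, 62.9, 67.7 and 59.1 CPM in KO libraries. The groups covered nearly the same range, and the log2 fold change was -0.01 (standard error 0.069). The mean in KO was 5.10% lower for Itgb1 and 0.404% lower for Itgb5.

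Itgav encodes the α partner of both β3 and β5. It had 37.0, 32.7, 31.2, 49.5 and 38.3 CPM in control and 40.8, 39.9, 30.0, 32.1 and 33.5 CPM in KO libraries. Control 4 and KO 1, the libraries that stood apart, were the highest of their groups, and the groups overlapped. The log2 fold change was -0.10 (standard error 0.123), and -0.04 without these libraries. In TPM the ratio of Itgb3 to Itgav was 1.52 ± 0.203 (SD, n = 5) in control and 0.861 ± 0.075 (SD, n = 5) in KO cultures, while that of Itgb5 to Itgav was 5.13 ± 1.18 and 5.39 ± 0.964. The ratio of Itgb3 ranged from 1.21 to 1.72 in control and from 0.783 to 0.974 in KO libraries, with no overlap. Of the β partners Itgb3, Itgb5 and Itgb8 summed, Itgb3 was 22.6% ± 2.03 (SD, n = 5) in control and 13.5% ± 1.81 (SD, n = 5) in KO cultures. These ratios hold the Itgb3 values that were already given and are not a separate result.

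**Figure D2:**
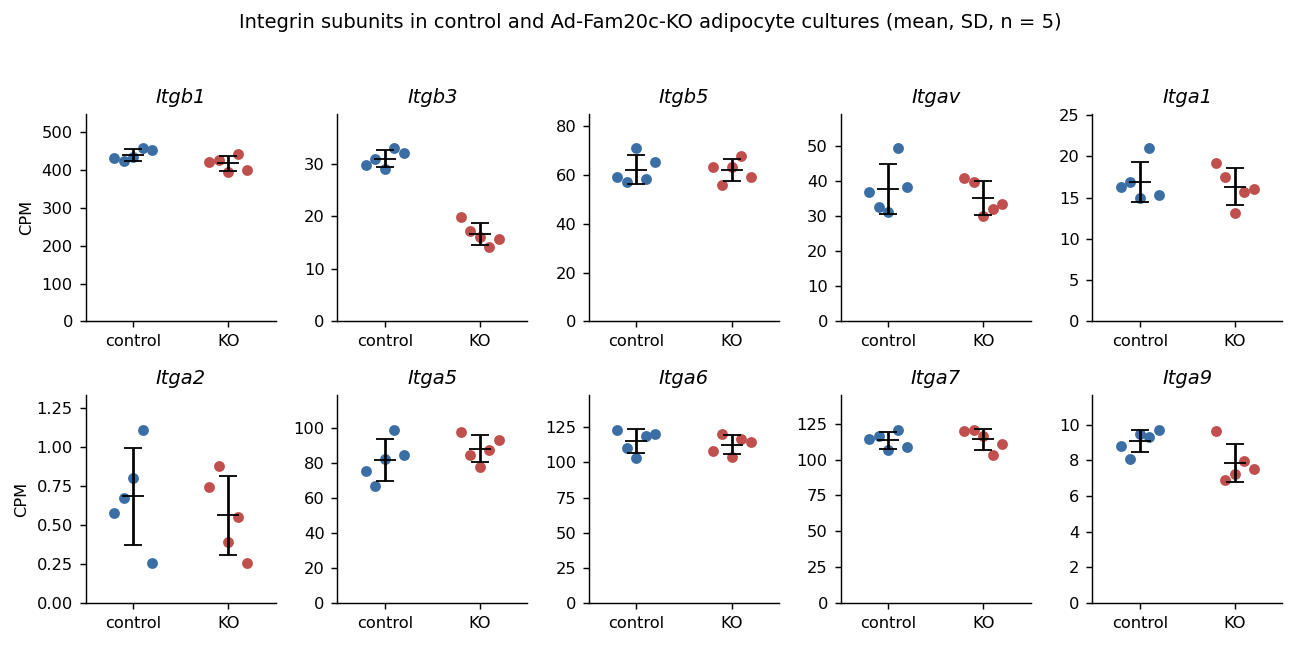
CPM of the 10 subunits in the 5 control (blue) and 5 KO (red) libraries, one panel per gene with its axis from 0; bars give the mean and SD. Itgb3 falls into separate ranges of 29.0 to 33.0 and 14.2 to 19.9 CPM, and in the other 9 panels the groups overlap.

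The collagen receptor subunits were low. Itga1, which favours collagen IV of basement membranes, had 16.3, 16.9, 15.0, 21.0 and 15.3 CPM in control and 19.2, 17.5, 13.1, 15.6 and 16.1 CPM in KO libraries. Control 4 and KO 1 were again the highest, the groups overlapped, and the log2 fold change was -0.05 (standard error 0.111). Itga2, which favours fibrillar collagen, rested on 5 to 23 counts per library. It had 0.577, 0.675, 0.799, 1.11 and 0.254 CPM in control and 0.744, 0.878, 0.393, 0.550 and 0.254 CPM in KO libraries. The groups overlapped almost wholly, and the log2 fold change of -0.25 was smaller than its standard error of 0.379, so that a difference was not detectable at this depth.

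Itga5, the α subunit of the classical fibronectin receptor, had 75.3, 67.0, 82.2, 99.1 and 84.7 CPM in control and 97.9, 84.4, 77.9, 87.4 and 93.4 CPM in KO libraries. Its log2 fold change of 0.11 (standard error 0.093) was the most positive of the 10, on overlapping groups. Itga9, the subunit of the tenascin and VCAM1 receptor, had 8.81, 8.10, 9.45, 9.33 and 9.72 CPM in control and 9.62, 6.89, 7.24, 7.97 and 7.53 CPM in KO libraries. KO 1 lay among the control libraries, and the other 4 KO libraries lay below all of them. The log2 fold change was -0.21 (standard error 0.096), and it was -0.28 without control 4 and KO 1.

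The laminin receptor subunits Itga6 and Itga7 had nearly the same level in both groups. Itga6, known from epithelia, endothelial cells and stem cells, had 123, 110.2, 103, 119 and 121 CPM in control and 108, 120.4, 104, 117 and 115 CPM in KO libraries, with a log2 fold change of -0.03 (standard error 0.058). Itga7, known from muscle and mural cells, had 114, 117, 107, 121 and 109 CPM in control and 119.6, 121, 117, 103 and 111 CPM in KO libraries, with a log2 fold change of 0.01 (standard error 0.052). The KO libraries of Itga6 all lay within the control range, and those of Itga7 covered that range and went slightly below it. Summed over its α partners, Itgb1 stood at a ratio of 1.90 ± 0.187 (SD, n = 5) in control and 1.78 ± 0.159 (SD, n = 5) in KO cultures, on the TPM scale.

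Of the other 16 subunits, 13 were tested, 1 fell, 0 rose and 12 did not pass the limit, and their median log2 fold change was -0.02. Itga3, the α subunit of a laminin receptor of epithelia, had 15.7, 15.0, 14.3, 15.5 and 18.2 CPM in control and 11.8, 10.4, 8.77, 9.30 and 11.6 CPM in KO libraries. All KO libraries lay below all control libraries. It fell by 0.61 on the log2 scale (standard error 0.095). The Benjamini-Hochberg adjusted p was 0.0038 in edgeR's quasi-likelihood test over 14270 genes. Its share of the laminin receptor subunits Itga3, Itga6 and Itga7 went from 9.34% ± 0.740 (SD, n = 5) to 6.37% ± 0.712 (SD, n = 5) of their TPM. This share holds the Itga3 values already given and is not a separate result. Itga3 shares no exon with another gene of GENCODE M21, and its longest run in common with another integrin was 20 bases, with Itga6.

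The 12 other tested subunits stayed short of the limit. Itga2b, the platelet partner of β3, had a mean of 6.34 ± 1.01 CPM (SD, n = 5) in control and 5.08 ± 0.775 CPM in KO cultures, and its log2 fold change was -0.32 (standard error 0.135, edgeR adjusted p = 0.361). Of the other platelet markers, Pf4 was present at 6.86 ± 1.84 CPM in control against 7.61 ± 1.51 CPM in the KO group (SD, n = 5 each), Gp1ba had a mean of 0.1 counts, and Ppbp, Gp9 and Gp1bb had no counts in any library. The leukocyte subunits Itgb2 and Itgam, which pair with each other, had log2 fold changes of -0.10 and -0.23, and Itgal, Itgax and Itgb6 did not pass the filter on low counts. Itgb8, a β partner of αv, had a log2 fold change of 0.23, Itgae of 0.40 and its partner Itgb7 of 0.34. Itga11, a collagen receptor subunit of fibroblasts, spread the most, from 10.5 to 63.8 CPM in control and from 15.7 to 51.8 CPM in KO libraries, with control 4 and KO 1 at the top. Its log2 fold change was 0.16 (standard error 0.458) with all libraries, and the value without these was 0.52. The remaining log2 fold changes were 0.04 for Itga4, -0.27 for Itga8, -0.31 for Itga10, 0.02 for Itgad and -0.02 for Itgb4.

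**Figure D3:**
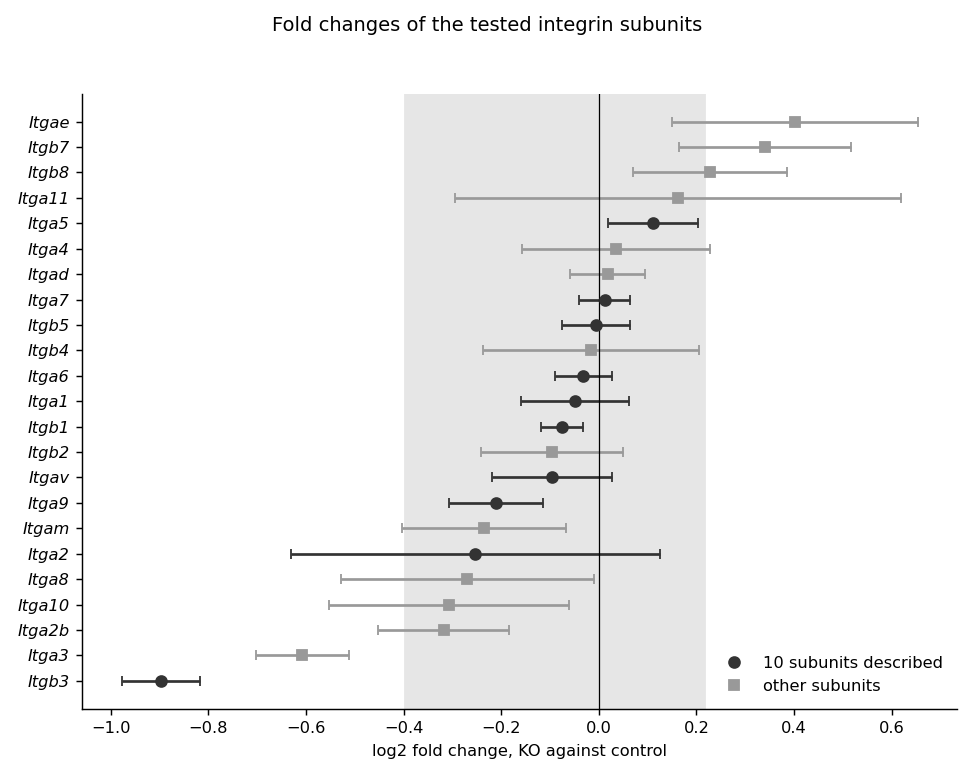
Log2 fold change of KO against control for the 23 tested subunits, with the standard error as bars; circles are the 10 subunits described, squares the others, and the grey band holds the middle 90% of all 14270 genes. Itgb3 at -0.90 and Itga3 at -0.61 lie at the low end.

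Endothelial markers moved with Itgb3. Of 19 endothelial markers, 17 fell and 0 rose, with a median log2 fold change of -1.24. Tek (-0.19) and Vwf (-0.39) did not pass the limit, and their libraries overlapped between groups. Cdh5, the cadherin of endothelial junctions, went from 53.1 ± 5.11 to 22.1 ± 3.67 CPM (SD, n = 5), and Pecam1 from 42.0 ± 4.71 to 18.0 ± 4.06 CPM (SD, n = 5). The mean of the markers did not overlap between groups, at 2.90 to 3.17 log2 CPM in control and 1.69 to 2.13 log2 CPM in KO libraries. Of the 10 subunits, 9 overlapped on these same libraries. The part of endothelial cells in the values of Itgb3, or of the other subunits, was not tested. Other cell types moved less. Pericyte and smooth muscle markers had 0 calls among 9 tested and a median of -0.13. Of these 9, 8 were negative, 2 did not overlap and 4 had an unadjusted p under 0.05 in edgeR's test. Over all 14270 genes tested, 1697 had such a p. Macrophage and myeloid markers had 0 calls of 12 and a median of -0.03. Progenitor markers fell in 4 of 11, Pdgfra, Cd34, Col1a1 and Clec3b, with a median of -0.31, though 2 were called without control 5, KO 2 or KO 5. Adipocyte markers had 0 calls among 12 and a median of 0.08. Of these 12, 2 were negative and 5 had an unadjusted p under 0.05 in edgeR's test. Schwann cell markers had 1 call of 8, Ngfr, which fell. Skeletal muscle markers had 0 calls among 3 tested of 10, mesothelial markers 0 among 2 of 7, and platelet markers 0 among 2 of 6.

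Within the groups, the level of Itgb3 followed the endothelial mean in part. Over the deviations of the 10 libraries from their group means, which share library depth and preparation, Pearson's r was 0.71 and Spearman's rho 0.48, and r was 0.08 without KO 1 and KO 4, the farthest libraries, so this relation rests on those. Itgb1, Itgav, Itga1 and Itga5 went instead with the pericyte and smooth muscle markers, at r = 0.80, 0.83, 0.83 and 0.85 (rho 0.82, 0.77, 0.64 and 0.79). They kept 0.73, 0.64, 0.51 and 0.72 without control 4 and KO 3. Itgb5 went with the progenitor markers (r = 0.82, rho 0.72) and, less closely, with the myeloid markers (r = 0.71, rho 0.65), and Itga9 with the adipocyte markers (r = 0.72, rho 0.81). These are the largest of 50 relations computed and are given as a description.

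**Figure D4:**
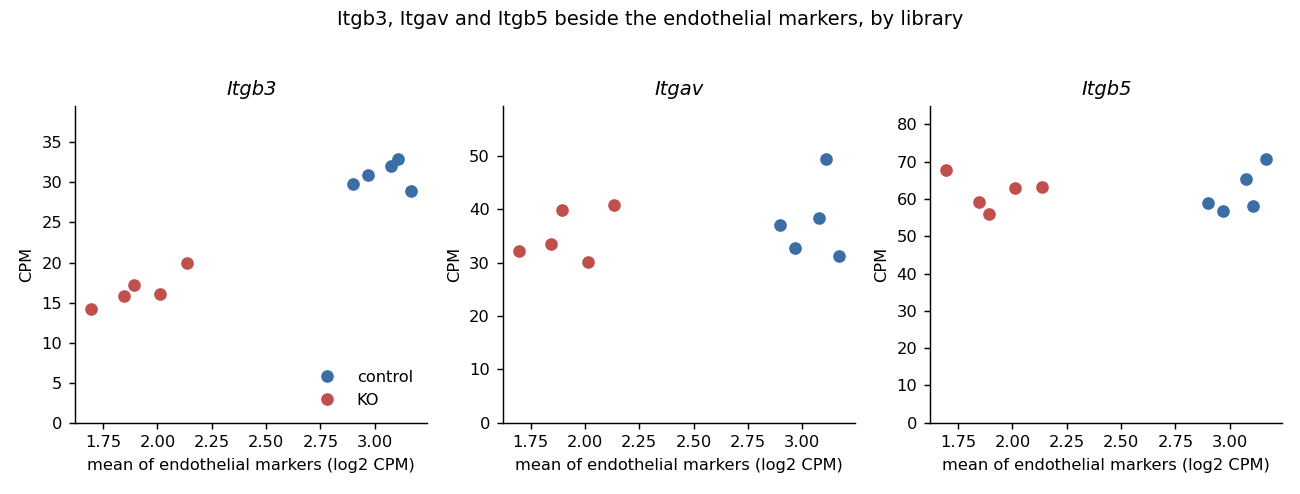
CPM of Itgb3, Itgav and Itgb5 (vertical, from 0) against the mean of 19 endothelial markers in log2 CPM (horizontal), 1 point per library, control in blue and KO in red. The marker mean separates the groups in each panel, and the level separates them for Itgb3 alone.

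The subunits also varied with each other inside the groups. Among 45 pairs of the 10 subunits the median r was 0.34, 15 pairs lay above 0.5 and 1 lay below -0.5. The closest pair was Itgav with Itga1, at r = 0.87 (rho 0.78). Itgb3 went with Itga7 at r = 0.74 and with its own partner Itgav at r = 0.69, and Itgav with Itga5 at r = 0.71. Itgb5, the other β partner of αv, ran against Itga7 at r = -0.76. Over 14267 other genes, those whose deviations were most like Itgb1 were Myof, Rnf135 and Stam2 (r = 0.94 each). Those most like Itgav were ENSMUSG00000120382, Peg10 and Tfrc (r = 0.97 each), and those most like Itga6 were Zfp438, Xpo4 and Smurf2 (r = 0.96 each). All are over 10 libraries. They are the largest of 14267 relations computed for each subunit and are given as a description.

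Ligands of these receptors were lower in several cases. Of 12 tested collagen genes, 5 fell and 0 rose, and the median log2 fold change was -0.20. Col5a1, a collagen of fibril assembly, fell by 0.32 on the log2 scale, from 544 ± 30.4 to 436 ± 23.4 CPM (edgeR adjusted p = 0.00402), and Col3a1, a fibrillar collagen of soft tissue, fell by 0.47. Col6a2 fell by 0.22, Col1a2 by 0.38 and Col1a1 by 0.38. Col5a1 was called in all 18 other settings tried, while Col1a2 and Col6a2 were called in 9 of them, Col1a1 in 8 and the number of collagens that fell went down to 1 without control 5 or KO 2. Progenitor markers, Col1a1 among them, moved with the collagens as given above, and their part was not tested. Of 11 laminin genes 1 fell, Lamc3, a γ chain, from 33.6 ± 4.17 to 21.1 ± 1.38 CPM (log2 fold change -0.67, edgeR adjusted p = 0.000811), with no overlap. The abundant chains of the culture, Lama4 and Lamb1, had log2 fold changes of 0.02 and 0.05. Their receptor subunits Itga6 and Itga7 were level, and Itga3 was lower.

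Of 24 tested RGD proteins and other glycoprotein ligands, 3 fell and 1 rose, with a median of -0.13. Ccn2, a matricellular ligand of αv integrins, fell by 0.72 on the log2 scale, from 20.2 ± 4.38 to 12.3 ± 1.54 CPM. Vcam1, an adhesion molecule of activated endothelium that α4 and α9 bind, fell by 0.40, and Postn, a matrix protein bound by αv integrins, by 0.31. None of these 3 was called without control 3, control 5, KO 2 or KO 5. Fga, the α chain of fibrinogen, rose by 0.72 from 4.71 ± 0.646 to 7.73 ± 1.21 CPM (edgeR adjusted p = 0.00995), while its partner chain Fgb had no counts and Fgg did not pass the filter.

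Inside the cell no gene passed the limit. Of 27 tested activators and adaptors, with talin, kindlin, vinculin and paxillin genes among them, 0 were called in edgeR's quasi-likelihood test, 3 had an unadjusted p-value under 0.05, and the median log2 fold change was -0.01. The same test called 0 of 24 signalling kinases and scaffolds, with 2 under an unadjusted 0.05, and 0 of 9 inactivators, also with 2. All log2 fold changes in these lists lay between -0.22 and 0.10. Examples are the adaptors Tns1 (0.04) and Actn4 (0.06), the GTPases Cdc42 (0.01) and Rhoa (0.05), and the filamin Flna (-0.16), which competes with talin for β tails, and Nisch (-0.05), which binds α5. Of 20 membrane partners 2 fell and 0 rose. Kdr, the VEGF receptor that acts with αvβ3 in endothelial cells, fell by 0.85 on the log2 scale, from 7.89 ± 0.687 to 4.40 ± 0.568 CPM (edgeR adjusted p = 0.000733), and the syndecan Sdc1 fell by 0.24. Kdr is itself an endothelial gene, and its values stand beside the endothelial markers above.

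**Figure D5:**
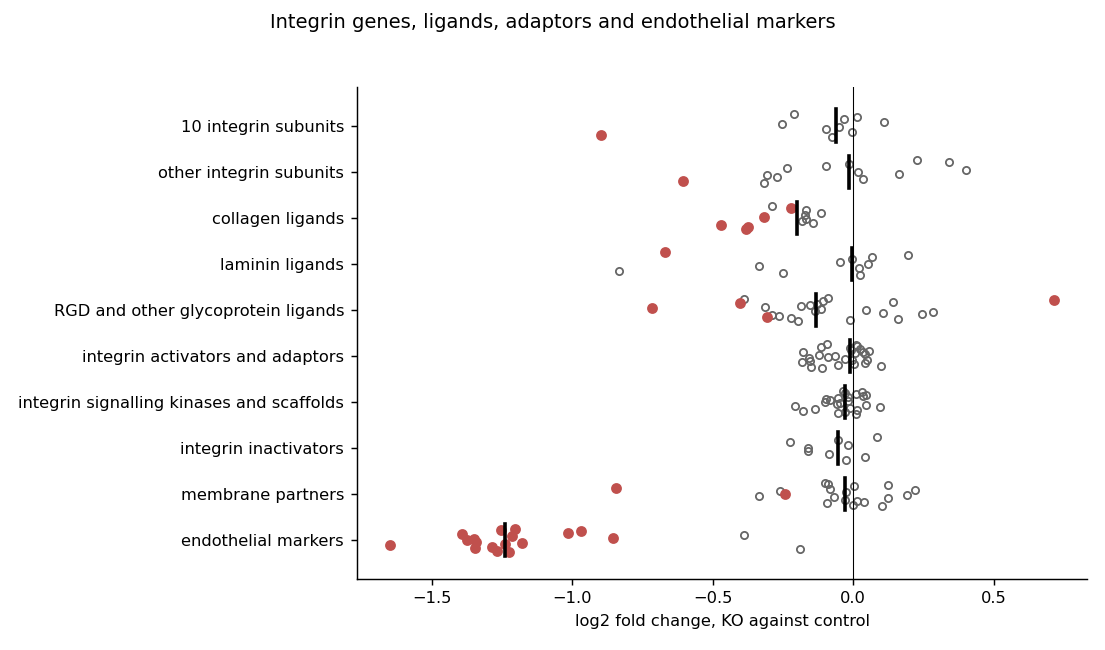
Log2 fold changes of KO against control for the tested genes of each list, 1 point per gene; filled red points passed the adjusted p limit of 0.05 and the black bar is the median of the list. Endothelial markers lie around -1.24, while adaptors, signalling genes and inactivators stay between -0.22 and 0.10.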

How the data were processed

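Counts of 5 control and 5 KO libraries were used. The authors used the SMARTer v4 kit and then Nextera XT, sequenced 50 paired cycles, mapped the reads with STAR to GRCm38.p6 and counted fragments with featureCounts on Ensembl genes. They deposited these counts per gene without normalization, and the strand setting is not given in the sources used here. Replicate numbers are those in the sample titles, and 0 columns belonged to other samples.

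The members and gene lists were chosen with earlier results of these data known. edgeR 4.0.16 in R 4.3.3 (filterByExpr, minimum count 10, TMM, quasi-likelihood test, Benjamini-Hochberg adjustment over 14270 genes) compared KO with control with no block, and a call is an adjusted p under 0.05. Calls described as fell or rose are from this test. Standard errors are the log2 fold change over the root of F. The study's own test was DESeq2, used here as an alternative (DESeq2 1.42.0), with limma 3.58.1 voom, other size factors and filters, a replicate block and each library left out. Leaving out control 4 and KO 1 together was added after the data were seen. CPM used effective library sizes. TPM used exon lengths of GENCODE M21, with a position for 52073 of 56748 genes. Log2 CPM used a prior count of 2. The scripts were tested on simulated counts.

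Named genes are the 10 subunits, Fam20c, every other tested integrin, and in each pathway list the up to 4 called genes of lowest p, or, where fewer than 2 were called, also the 2 tested genes of highest count, and up to 3 markers of highest count in each marker list. Genes most like a subunit were sought for Itgb1, Itgav and Itga6. Marker genes named outside this rule for a call or the lack of one, and Gm13684 and Gm49395, were chosen after their values were seen. Totals of 18949106 to 26237825 counts per library leave low genes such as Itga2 with the largest counting error.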

Additional observations from a re-analysis of the deposited data

Results flagged for a closer look

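In 86 groups of 5 libraries, the integrin subunits and named pathway genes were searched for a library far from the rest of its group, by a gap to the nearest library of more than 0.71 of the whole range (Dixon's limit). This found 4, where chance alone gives about 1 in 20, or 4.3. Itga8 had 1.65 CPM in control 3, against 0.637 to 0.919 CPM in the other control libraries. Itga11 had 63.8 CPM in control 4, against 10.5 to 20.4 CPM. Itgae had 5.08 CPM in control 4, against 2.73 to 3.09 CPM. Cdc42 had 458 CPM in KO 4, against 408 to 416 CPM in the other KO libraries. None of the 10 subunits had such a library.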

How the results depend on the processing

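Counts of calls over all genes, the integrin and pathway lists and 3 marker lists (endothelial, progenitor and Schwann cell), and the log2 fold changes of single genes of these lists, were recomputed in 18 other settings. Itga2, Itga4, Itga8, Itga10, Itgb4 and Itgb7 did not pass a minimum count of 50. The marker lists, Cdh5, Pecam1 and Col1a1 were added to this after the data were seen. The log2 fold change of Itgb3 was between -0.97 and -0.85, as a description. Itga3 was the 1 called among the other subunits in all 18, at -0.66 to -0.55. Lamc3, Fga, Kdr, Col5a1 and Fam20c were called in all 18 settings, Col3a1 and Sdc1 in 15, Ccn2 and Vcam1 in 12, and Postn, Col1a2 and Col6a2 in 9 and Col1a1 in 8. Endothelial markers that fell numbered 16 to 17. The cause of the lost calls was not tested. With each library left out in turn, genes that fell numbered 164 to 323 and those that rose 19 to 119, against 265 and 44. The low of 164 came without KO 2, the low of 19 without control 5 and the high of 119 without control 4. Progenitor markers that fell numbered 2 to 4, with 2 without control 5, KO 2 or KO 5, collagens 1 to 5, glycoprotein ligands 0 to 3 and membrane partners 1 to 3, and 0 to 1 membrane partners rose. Genes that rose numbered 125 with DESeq2, 111 with voom and 145 without control 4 and KO 1 together. DESeq2 and voom each called 2 glycoprotein ligands as higher, DESeq2's size factors left 3 collagens lower, and 1 membrane partner was higher without control 4 and KO 1.

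With a replicate block, genes that rose numbered 21, collagens that fell 2, glycoprotein ligands 0 and membrane partners 1, and Itga3 was still below the limit. The labels do not say whether same-numbered libraries were paired, and no pairing was used in the main test. The correlations of same-numbered libraries were -0.173, 0.089, 0.263, -0.251 and 0.034. Those of differently numbered libraries ran from -0.362 to 0.488. So few correlations cannot decide whether the libraries were paired.

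Signs near 0 turned when 1 library was left out. The log2 fold changes then ranged from -0.057 to 0.21 for Itga4, -0.40 to 0.0074 for Itga8, -0.17 to 0.86 for Itga11, -0.021 to 0.087 for Itgad, -0.20 to 0.10 for Itgb4, -0.033 to 0.080 for Lama4, -0.0080 to 0.10 for Tns1, -0.022 to 0.024 for Cdc42 and -0.11 to 0.034 for Nisch. Of the 10 subunits, Itgb5 (-0.04 to 0.05), Itgav (-0.15 to 0.02), Itga1 (-0.11 to 0.04) and Itga7 (-0.01 to 0.05) also crossed 0.

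With the longest transcript as length, control TPM became 294 for Itgb1, 48.3 for Itgb5, 72.0 for Itga7, 68.3 for Itga6, 13.67 for Itgb3, 13.65 for Itgav, 3.31 for Itga9 and 3.93 for Itga1. Without the 2 libraries farthest from the median, r went to 0.075 for Itgb3 with endothelial markers, to 0.64, 0.51 and 0.72 for Itgav, Itga1 and Itga5 with pericyte markers, to 0.61 for Itgb5 with myeloid markers and to 0.89 for Itga9 with adipocyte markers. Low counts limit Itga2, at 5 to 23 counts a library.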

Other observations

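Itgad, the αD subunit known from macrophages, was the second most abundant subunit of the family per length, at 158.5 ± 16.7 TPM (SD, n = 5) in control and 157.5 ± 10.7 TPM (SD, n = 5) in KO cultures. It stood above its partner Itgb2, with 38.9 ± 5.86 TPM, and above the related leukocyte subunits Itgam, with 5.21 ± 0.991 TPM, and Itgax, with 0.066 ± 0.026 TPM in control cultures. Its libraries held 3977 to 5572 counts. Its exons share 70 bases with Cox6a2 on the opposite strand, which had a mean of 215 counts, and the strand setting of the counting is not given. Itgad was singled out after its values were seen.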
